A study of Mus musculus with 8 samples.

Results

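The enzymes of the kynurenine pathway were examined in B6 mice and BTBR/R mice, in RNA of the cerebral cortex together with the striatum. The members are 10 genes named for their place in this pathway (Ido1, Ido2, Tdo2, Afmid, Kmo, Kynu, Haao, Qprt, Acmsd and Aadat), taken as every probe whose gene name on the array equals one of them. This gave 17 of the 56605 probes analysed. Of the genes, 4 had 1 probe, 5 had 2 probes and 1, Kynu, had 3 probes.

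The arrays compared 4 male mice of the inbred strain C57BL/6J (B6) with 4 male mice of BTBRTF/ArtRbrc (BTBR/R), an inbred subline of BTBR, a strain whose BTBR/J subline is often used as a model of autism spectrum disorder. The labels name no treatment and no transgene. The age was 4 months, except for BTBR/R replicate 1, which was 6 months old. Each mouse had an array of its own, and cortex and striatum were 1 sample per mouse, so the regions cannot be told apart.

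The kynurenine pathway is the main route by which mammals break down the amino acid tryptophan. Ido1, Ido2 or Tdo2 opens the tryptophan ring, and Afmid releases kynurenine from the product. Kmo, Kynu and Haao then lead by way of 3-hydroxykynurenine to quinolinic acid, which Qprt feeds into the synthesis of NAD, while Acmsd draws an intermediate away before quinolinic acid forms. Aadat converts kynurenine to kynurenic acid instead. In the brain, quinolinic acid is known to excite NMDA-type glutamate receptors and kynurenic acid to block them. Kmo is known in the brain mainly from microglia, and Tdo2 is best known from the liver. BTBR mice are known for a sequence variant of Kmo. The arrays measured RNA levels and read no sequence variant, and whether the strains differ in sequence under a probe was not tested.

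Each probe is an oligonucleotide of 60 bases, and 30 bases are shown here for the probes on which the results turn, 5′ to 3′ and in lower case. Positions are those of the whole probe in the mm9 mouse genome build, as the array's annotation gives them. Capitals mark ATTAAA or AATAAA, the hexamers known as polyadenylation signals, and a sequence with no capitals holds neither hexamer among the bases shown. The first 3 sequences belong to the probes measured in all 8 mice, the next 4 to probes measured in every B6 mouse but not in every BTBR/R mouse, and the last 2 to the pair of Kmo probes.
Ido1 (A_51_P307150), chr8:25694798-25694857, minus strand, bases 30 to 59: ctgtcatagctcATTAAAtcagatccacca
Ido2 (A_51_P384515), chr8:25642518-25642577, minus strand, bases 1 to 30: gatgcgactcccccacagagggtagacatt
Haao (A_55_P2074035), chr17:84230696-84230755, minus strand, bases 31 to 60: aagaaatctctcAATAAAggcatcctgctg
Tdo2 (A_66_P119621), chr3:81765359-81765418, minus strand, bases 1 to 30: caggtccctttccagctgctgacctcactt
Afmid (A_52_P219904), chr11:117700730-117700789, plus strand, bases 1 to 30: cctgtgtgtagcaggctctaccagacctga
Afmid (A_66_P101632), chr11:117697751-117697810, plus strand, bases 1 to 30: tttccagcagctgcgtggtgtggatcactt
Qprt (A_51_P394014), chr7:134251475-134251534, minus strand, bases 1 to 30: ccgaagaagatgccaccagaatggactact
Kmo (A_66_P106836), chr1:177590673-177590732, plus strand, bases 1 to 30: gcttctgtcttctccaagctggctgactgg
Kmo (A_51_P493302), chr1:177590200-177590259, plus strand, bases 1 to 30: aaatgcaataaccaacatctctttcacttc

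Searched as printed over the whole 60 bases, AATAAA occurred in 1 of the 17 probes and in 9.77% of all probes, and ATTAAA in 2 of 17 and in 3.86% of all probes. The second probe with ATTAAA was A_55_P2739017 of Haao. On the opposite strand, 3.85% of all probes held AATAAA, 2.68% held ATTAAA, and no probe of the pathway held either. The median GC content was 43.3% for the 17 probes and 41.7% for all probes. Whether a probe lies in coding sequence or in a UTR was not analysed here.

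The main measure is the processed signal, the spot intensity after the scanner software took off the background. The software replaces the lowest signals with a small positive number, called a surrogate here. For the comparison, each array was shifted on the log2 scale so that its 75th percentile lay at 0, which gave the scaled signal. This was fitted with limma over all 56605 probes, and differences are given as BTBR/R minus B6. A probe was called at a Benjamini-Hochberg adjusted p below 0.05 and a difference of at least 2-fold. A probe counts as detected where the software marked its spot as well above background. Normexp, another background correction, was run for comparison, with an offset of 50 added to each signal. Such an offset shrinks log2 differences between dim signals.

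The arrays of the strains differed at the dim end. Detected signals began at 14.5 to 17.8 in B6 mice and at 36.1 to 47.1 in BTBR/R mice, and the median surrogate was 3.30 to 4.06 against 8.35 to 10.6. The 308 negative control spots of each array had a median raw signal of 46.3 to 49.0 in B6 and 48.4 to 52.0 in BTBR/R, and a 95th percentile of 52.7 to 55.9 against 77.2 to 108. All arrays shared 1 slide and 1 scan, B6 mice filled slide column 1 and BTBR/R mice slide column 2, so the column of the slide and the strain cannot be told apart. The 14 markers of neurons, cortical glutamatergic neurons and striatal projection neurons were detected on all 8 arrays by the brightest probe of each gene. None of these probes had an adjusted p below 0.05. Among their other probes detected on all 8 arrays, those of Syt1 differed by -0.39 and -0.28 and that of Drd1 by -0.31. Those of the remaining genes differed by -0.12 to 0.21.

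Markers of some other cell types did differ. Of 3 red blood cell markers, Hba-a1 (-1.18, limma adjusted p = 0.0319) and Alas2 (-1.36, adjusted p = 0.0324) were called as lower in BTBR/R mice. Both lost the call when any single mouse other than B6 replicate 1 or 4 was left out, and without B6 replicate 2 they differed by -0.86 and -1.0. The mean scaled signal of these markers was 1.78 to 3.56 in B6 mice and 1.23 to 1.52 in BTBR/R mice. At an adjusted p below 0.05 but under 2-fold, 1 of 4 endothelial markers (Cldn5, -0.51), 2 of 5 astrocyte markers (Aldh1l1, -0.31, and Aqp4, -0.28) and 1 of 4 oligodendrocyte markers (Mog, -0.35) were lower, and none of 4 choroid plexus markers passed. Without single mice, the limma adjusted p ranged from 0.0095 to 0.079 for Aqp4 and was above 0.05 in 6 of 8 omissions, and it ranged from 0.015 to 0.074 for Mog and was above 0.05 in 5 of 8. It was also above 0.05 with the floor at the highest detection limit, at 0.077 for Aqp4 and 0.083 for Mog, and for Aqp4 with replicate number as a block (0.064). The part of blood, endothelium or glia in the values below was not tested.

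Ido1, Ido2 and Haao were the genes with a probe detected in all 8 mice, and none of them differed between the strains beyond the spread between mice. For Afmid, Tdo2 and Qprt, a probe was detected in every B6 mouse but not in every BTBR/R mouse. Kmo and Aadat, and a further probe of Ido2, were detected in some B6 mice and in no BTBR/R mouse. The remaining 7 probes were detected on no array. They covered all 3 probes of Kynu, the probe of Acmsd and a further probe each of Kmo, Haao and Qprt.

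**Figure D1:**
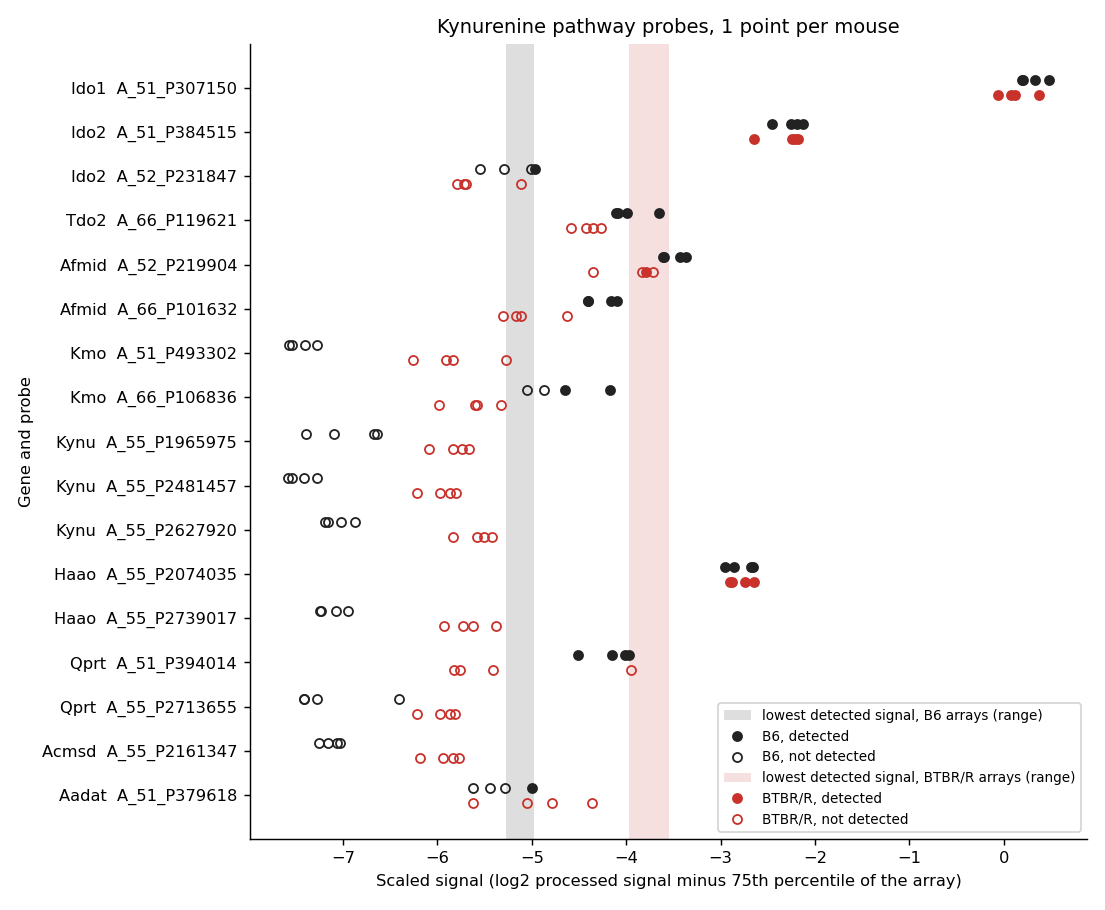
Scaled signal (log2, horizontal axis) of the 17 probes (vertical axis), with 1 point per mouse, black for B6 and red for BTBR/R; filled points were detected, open points were not, and the shaded bands span the lowest detected signals of the arrays of each strain. Ido1, Ido2 (A_51_P384515) and Haao (A_55_P2074035) were detected in all 8 mice with overlapping strains, and the 7 probes detected on no array lay at or near the surrogate level of each strain.

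Of the enzymes that open the tryptophan ring, Ido1 gave processed signals of 643, 707, 641 and 799 in the B6 mice and 737, 514, 607 and 640 in the BTBR/R mice (replicates 1 to 4). The highest mouse was a B6 mouse and the lowest a BTBR/R mouse, and the strains overlapped. The scaled signal of Ido1 was 0.30 ± 0.14 in B6 and 0.13 ± 0.18 in BTBR/R (SD, n = 4 each). The difference was -0.17 (log2; SE 0.11, limma adjusted p = 0.255), and its 95% confidence interval ran from -0.43 to 0.084, or from 0.743-fold to 1.06-fold. When single mice were left out, the limma adjusted p of Ido1 ranged from 0.073 to 0.47. It was lowest without BTBR/R replicate 1, the older mouse, at a difference of -0.26.

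Ido2 opens the same ring and lies close to Ido1 on the chromosome. Its brighter probe (A_51_P384515) gave 103, 129, 117 and 126 in B6 mice and 125, 113, 124 and 93.8 in BTBR/R mice. BTBR/R replicate 4 was the lowest of all 8 mice, and the other BTBR/R mice lay among the B6 mice. The difference was -0.068 (log2; SE 0.12, limma adjusted p = 0.702), with a 95% confidence interval from -0.36 to 0.22. Without BTBR/R replicate 4, the difference was 0.041. The second probe of Ido2 (A_52_P231847) was detected in 1 B6 mouse only, and its difference was -0.38 (SE 0.19, limma adjusted p = 0.164). With normexp it was -0.20 (limma adjusted p = 0.044), and with quantile normalization added -0.28 (adjusted p = 0.0033). Without BTBR/R replicate 1 it was -0.53 (adjusted p = 0.034), while the adjusted p was above 0.05 in 7 of 8 omissions of a mouse.

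Tdo2, the third of these enzymes, was dim. Its processed signals were 32.8, 33.0, 44.3 and 35.8 in B6 mice, all detected, and 27.8, 27.8, 23.9 and 27.4 in BTBR/R mice, none detected. No BTBR/R mouse reached the lowest B6 mouse. The scaled signal was -3.96 ± 0.21 in B6 and -4.41 ± 0.14 in BTBR/R (SD, n = 4 each), a difference of -0.45 (log2; SE 0.12, limma adjusted p = 0.0216), which was not called. No fold is given, since the BTBR/R mice have only an upper bound that lies above the B6 mean.

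The raw signals of the same Tdo2 spots, before the background was taken off, were not lower in BTBR/R mice. They were 78.7, 79.5, 85.3 and 80.1 in B6 mice and 86.0, 84.2, 89.2 and 96.8 in BTBR/R mice, and the strains overlapped. With normexp, the difference was 0.046 (limma adjusted p = 0.45). The adjusted p was also above 0.05 without BTBR/R replicate 3 (0.053), without BTBR/R replicate 4 (0.051), with limma's trend and robust options (0.056) and with replicate number as a block (0.094). The hepatocyte markers Alb and Apoa1, which would mark RNA of liver origin, were detected in no B6 mouse, and Alb was detected in 1 BTBR/R mouse. Both were called as higher in BTBR/R mice on the processed signal (2.51 and 1.58) and neither with normexp (0.53 and 0.17).

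Afmid, the formamidase that releases kynurenine, had 2 probes, starting at bases 1839 and 840 of the same transcript. Probe A_52_P219904 gave 46.4, 52.0, 45.4 and 55.5 in B6 mice and 41.0, 40.6, 28.1 and 41.5 in BTBR/R mice, of which only 1 was detected. Probe A_66_P101632 gave 32.9, 31.3, 26.2 and 26.9 in B6 mice and 16.3, 14.9, 14.6 and 23.8 in BTBR/R mice, of which none was detected. On both probes, every B6 mouse lay above every BTBR/R mouse in processed signal. The raw signals overlapped on both, at 103 to 115 in B6 and 89.0 to 106 in BTBR/R on A_52_P219904, and at 73.2 to 80.3 and 66.1 to 76.0 on A_66_P101632.

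The scaled signal of A_52_P219904 was -3.50 ± 0.12 in B6 and -3.92 ± 0.29 in BTBR/R (SD, n = 4 each), a difference of -0.42 (log2; SE 0.15) that missed the threshold (limma adjusted p = 0.0594). Without BTBR/R replicate 3 it was -0.27 (limma adjusted p = 0.042). That of A_66_P101632 was -4.27 ± 0.16 and -5.05 ± 0.29, a difference of -0.78 (log2; SE 0.16, limma adjusted p = 0.00588), under the 2-fold needed for a call. No fold is given for A_66_P101632, whose BTBR/R signals were all below detection. With normexp, the differences of the Afmid probes were -0.12 (adjusted p = 0.21) and -0.11 (adjusted p = 0.14). Both probes of Afmid thus kept their direction with normexp, at adjusted p above 0.05. With quantile normalization added to normexp, they differed by -0.21 (limma adjusted p = 0.042) and -0.20 (adjusted p = 0.020).

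Kmo, the hydroxylase that makes 3-hydroxykynurenine, was near or below the detection limit. Its probes start at bases 1713 and 2186 of the same transcript. The brighter one, A_66_P106836, gave 19.2, 16.9, 30.9 and 22.8 in B6 mice and 9.0, 11.2, 11.8 and 14.6 in BTBR/R mice. B6 replicates 3 and 4 were detected, no BTBR/R mouse was, and 2 of the BTBR/R values were surrogates. Every B6 mouse lay above every BTBR/R mouse, and the difference was -0.94 (log2; SE 0.21, limma adjusted p = 0.0112), under 2-fold. It passed 2-fold without B6 replicate 2 (-1.06), without BTBR/R replicate 4 (-1.03) and with quantile normalization (-1.06).

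The raw signals of this Kmo probe were 70.1, 65.8, 78.9 and 70.5 in B6 mice and 61.3, 63.7, 64.3 and 67.9 in BTBR/R mice. They overlapped, and they lay above the 95th percentile of the negative controls in all 4 B6 mice and in no BTBR/R mouse. With normexp, the difference was -0.12 (limma adjusted p = 0.21).

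The other Kmo probe, A_51_P493302, went the opposite way. Its processed signals were 3.65, 2.94, 3.30 and 3.08 in B6 mice and 7.41, 9.35, 9.59 and 15.2 in BTBR/R mice, none of them detected, and 7 of these 8 values were surrogates. It was called as higher in BTBR/R mice, by 1.63 (log2; SE 0.20, limma adjusted p = 0.000412), although the median raw signals of its spots were 50.5 in B6 and 50.7 in BTBR/R. With normexp, the difference was 0.086.

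Some microglial markers were lower in BTBR/R mice, as the brighter Kmo probe was. Of the 6 markers, all detected in all 8 mice, 3 were lower in BTBR/R mice at an adjusted p below 0.05 and 1 was higher. Cx3cr1, the fractalkine receptor, differed by -0.71 (limma adjusted p = 8.71e-05), the complement gene C1qa by -0.35 (0.00108) and Aif1 by -0.25 (0.00444), while the purine receptor P2ry12 differed by 0.22 (0.0478, and 0.019 to 0.11 without single mice). A second detected probe of Cx3cr1 differed by 1.71, in the opposite direction. The mean scaled signal of the 6 markers was 2.10 to 2.13 in B6 mice and 1.86 to 2.0 in BTBR/R mice. This mean used the brightest probe of each gene, so the Cx3cr1 probe that was lower. It was not calculated with the second Cx3cr1 probe. The part of microglia in the Kmo values was not tested, and in such tissue fewer cells of a type cannot be told apart from less RNA per cell.

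Kynu, which cleaves kynurenine and 3-hydroxykynurenine, was detected in no mouse with any of its 3 probes. The processed signals of these probes ranged from 2.93 to 5.60 in B6 mice and from 7.61 to 12.6 in BTBR/R mice. A_55_P2481457 and A_55_P2627920 held surrogates on all 8 arrays. They were called as higher in BTBR/R mice, by 1.49 and 1.48 (log2; SE 0.11 each), and had normexp differences of -0.089 and -0.26.

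The third Kynu probe, A_55_P1965975, took opposite directions under the background corrections. On the processed signal it was called as higher in BTBR/R mice, by 1.12 (SE 0.19, limma adjusted p = 0.00238), with surrogates in 2 B6 mice and all 4 BTBR/R mice. Without B6 replicate 2 it differed by 0.97, under 2-fold, and lost the call. With normexp it was lower in BTBR/R mice, with a difference of -0.34 (limma adjusted p = 0.0022). Its raw signals were 60.7, 57.6, 61.3 and 57.8 in B6 mice and 50.2, 49.0, 48.7 and 44.6 in BTBR/R mice. They did not overlap, and those of the 4 B6 mice lay above the 95th percentile of the negative controls.

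**Figure D2:**
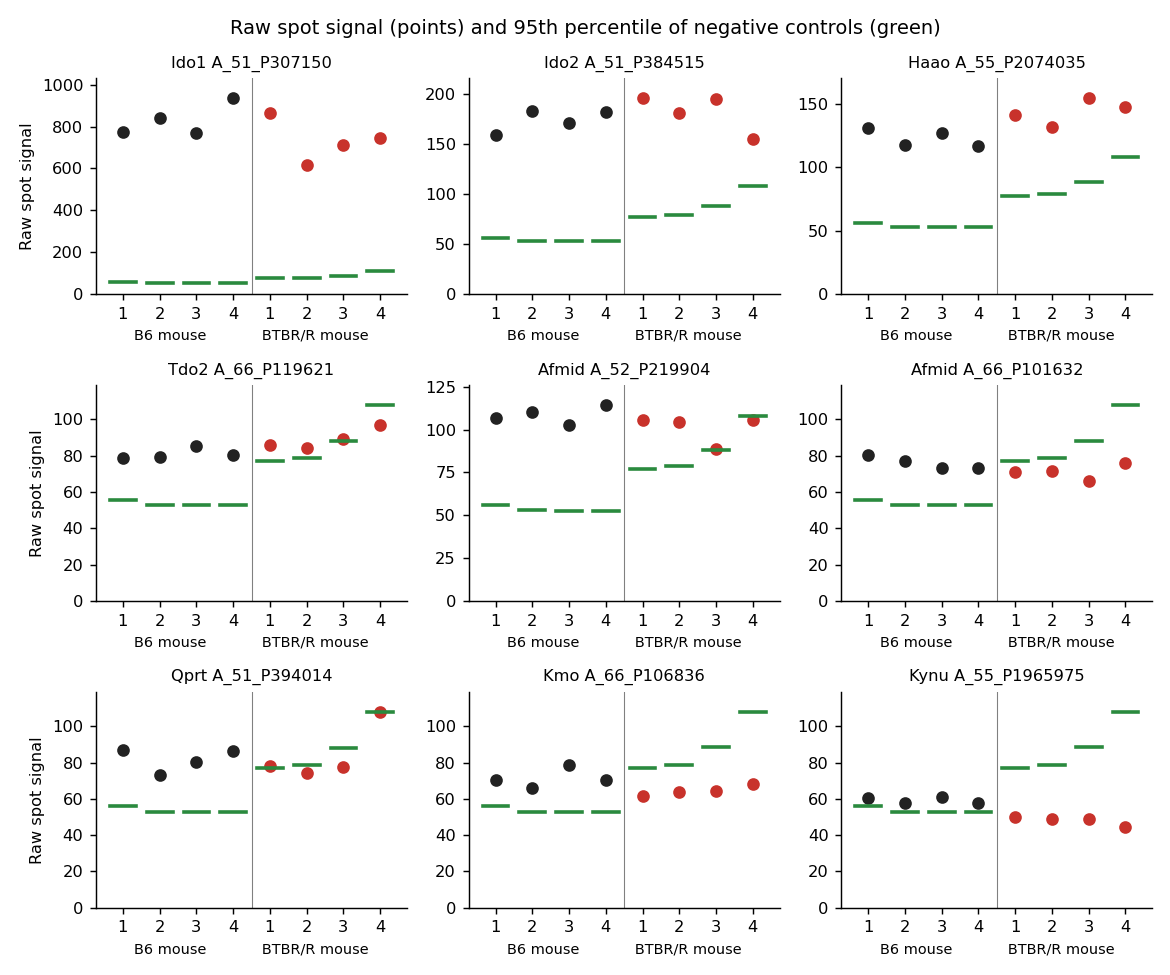
Raw spot signal of 9 probes (vertical axis, linear and starting at 0) in each mouse (horizontal axis, B6 replicates 1 to 4 in black, then BTBR/R replicates 1 to 4 in red), with the 95th percentile of the negative control spots of that array as a green bar. Ido1, Ido2 and Haao lie above the bar in all 8 mice, while Kmo, Kynu and Afmid (A_66_P101632) lie above it in the B6 mice only.

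Haao, which makes the precursor of quinolinic acid, was measured in all 8 mice with probe A_55_P2074035. Its processed signals were 89.1, 77.4, 86.8 and 73.8 in B6 mice and 76.2, 72.7, 85.9 and 94.4 in BTBR/R mice. The lowest and the highest mouse were both BTBR/R mice. The difference was -0.0013 (log2; SE 0.092, limma adjusted p = 0.993), with a 95% confidence interval from -0.22 to 0.21, or from 0.860-fold to 1.16-fold. The raw signals of the same spots did not overlap, at 131, 117, 127 and 117 in B6 mice and 141, 132, 155 and 148 in BTBR/R mice. With normexp, Haao differed by 0.15 (limma adjusted p = 0.084). The second Haao probe, A_55_P2739017, lies at chr17:84236568-84236627, was detected on no array and held surrogates on 7 of 8 arrays. It was called as higher in BTBR/R mice, by 1.46 (limma adjusted p = 5.5e-05), with 0.15 under normexp.

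Qprt takes quinolinic acid toward NAD. Its probe A_51_P394014 gave 35.0, 24.5, 31.3 and 36.5 in B6 mice, all detected, and 13.4, 9.90, 10.1 and 38.0 in BTBR/R mice, none detected, with surrogates in 2 of them. BTBR/R replicate 4 was the highest of all 8 mice, and the other 3 BTBR/R mice lay below every B6 mouse. The difference was -1.07 (log2; SE 0.41), and it missed the threshold (limma adjusted p = 0.0776). Without BTBR/R replicate 4, it was -1.50 (limma adjusted p = 0.000597), and the probe was called.

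The raw signals of this Qprt probe overlapped, at 87.0, 73.5, 80.5 and 86.3 in B6 mice and 78.5, 74.2, 77.5 and 108 in BTBR/R mice. With normexp, the difference was -0.020 (limma adjusted p = 0.90). The second Qprt probe, A_55_P2713655, was detected on no array. It was called as higher in BTBR/R mice, by 1.16 (SE 0.24, limma adjusted p = 0.00672), with surrogates in 2 B6 mice and all 4 BTBR/R mice, and its difference was -0.048 with normexp.

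The enzymes at the side branches were also dim. Acmsd, which draws the pathway away from quinolinic acid, was detected in no mouse, with processed signals of 3.70 to 4.26 in B6 and 7.81 to 10.1 in BTBR/R, where all 4 values were surrogates. It was called as higher in BTBR/R mice, by 1.20 (limma adjusted p = 4.2e-05), with -0.13 under normexp. Aadat, the aminotransferase that makes kynurenic acid, gave 14.5, 12.9, 11.3 and 17.9 in B6 mice and 20.6, 10.8, 17.3 and 28.6 in BTBR/R mice. Only B6 replicate 4 was detected, the strains overlapped, and the difference was 0.38 (SE 0.27, limma adjusted p = 0.310). It ranged from 0.18 without BTBR/R replicate 4 to 0.60 without BTBR/R replicate 2. The adjusted p was above 0.05 in all 8 omissions of a mouse. With normexp, the Aadat difference was 0.20 (limma adjusted p = 0.12).

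Counted over the pathway, 7 of the 17 probes were called, all 7 as higher in BTBR/R mice, beside 22.4% of all probes (20.2% higher and 2.27% lower). These 7 were the probes detected on no array, and of all probes detected on no array 67.7% were called as higher. Surrogates made up 54 of the 136 values of the 17 probes. Over the whole array, 4552 probes held surrogates on all 8 arrays, and each of them was called as higher in BTBR/R mice, with a median of 1.45 and a 5th to 95th percentile range of 1.39 to 1.49. With normexp, none of the 17 probes was called, beside 0.995% of all probes. Because of its offset, dim probes can hardly differ by 2-fold, so this count alone does not decide whether they differ.

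Of the 7 probes detected in every mouse of 1 strain or of both, none was called by limma, beside 4.41% of all such probes. At an unadjusted p below 0.05 there were 4, beside 36.8% of all such probes, and at an adjusted p below 0.05 there were 2, Tdo2 and Afmid (A_66_P101632), both lower, beside 16.9% of all such probes. Those 2 belong to the probes detected on every B6 array but not on every BTBR/R array, 4 in the pathway, of which 29.1% were lower at that threshold over the whole array. Counted over all 17 probes, 3 were lower at that threshold, with Kmo (A_66_P106836) as the third, beside 11.6% of all probes. The strains did not overlap on 11 of the 17 probes, beside 42.4% of all probes, and on 3 of the 7 detected probes, beside 32.2%. The median difference was -0.0013 over the 17 probes and 0.074 over all probes.

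**Figure D3:**
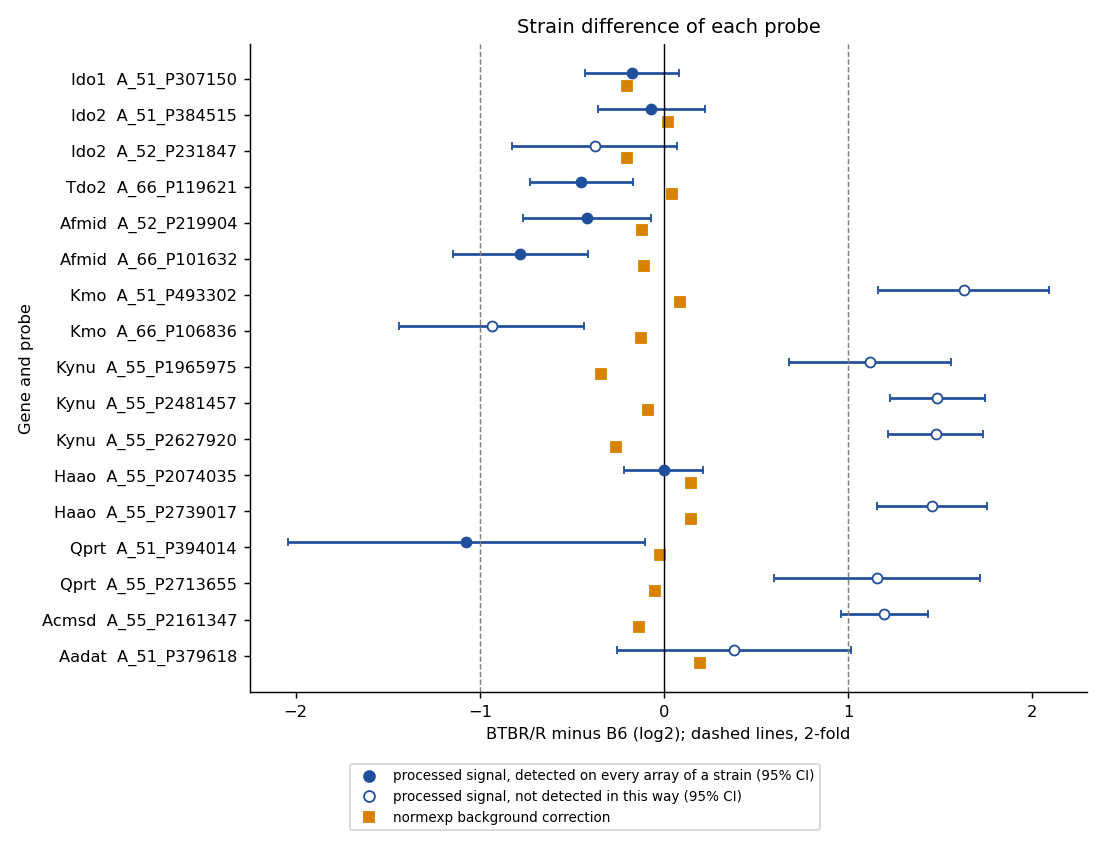
Difference between the strains (BTBR/R minus B6, log2, horizontal axis) of the 17 probes (vertical axis), as blue circles with 95% confidence intervals from the processed signal, filled where the probe was detected on every array of a strain, and as orange squares with normexp background correction. The 7 probes beyond 2-fold on the right have open circles and normexp values between -0.34 and 0.15, while the intervals of Ido1, Ido2 and Haao (A_55_P2074035) span 0.

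The surroundings of the pathway were better measured. Of 40 genes in 5 lists (other enzymes of the kynurenine and glutarate branch, NAD synthesis, tryptophan transport and other uses, receptors of the metabolites, and cytokine signals that induce the pathway), 30 had a standing probe, the brightest of the gene, detected in all 8 mice. At an adjusted p below 0.05, BTBR/R mice had 4 of the 40 higher and 9 lower. Of the 30 detected in all 8 mice, 1 was higher and 7 were lower, or 26.7%, beside 26.9% of all probes detected on all 8 arrays. With the 2-fold rule, 3 were called as higher and 2 as lower. The 3 called as higher (Cyp1a1, a target of the aryl hydrocarbon receptor, Gpr35, a receptor of kynurenic acid, and the cytokine Ifng) were detected on no array, with differences of 1.11, 1.42 and 1.46. Cyp1a1 fell under 2-fold without B6 replicate 2 (0.99). Their normexp differences were 0.10, 0.23 and 0.11.

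Slc7a8, a transporter of neutral amino acids, was called and detected in all 8 mice. Its scaled signal was 0.78 ± 0.11 in B6 and -0.26 ± 0.068 in BTBR/R (SD, n = 4 each), a difference of -1.04 (SE 0.070, limma adjusted p = 2.76e-05), or 2.05-fold lower. With normexp it was -0.97, just under 2-fold. Slc7a5 and Slc3a2, which together form the main tryptophan carrier at the blood-brain barrier, differed by 0.19 and -0.039 (limma adjusted p = 0.204 and 0.487). The probes of Slc3a2 disagreed, since its 2 other probes, also detected in all 8 mice, differed by -0.45 and 0.014. Among the other users of tryptophan, the mitochondrial tryptophanyl-tRNA synthetase Wars2 was higher in BTBR/R mice by 0.57 (SE 0.13, limma adjusted p = 0.0127). Tph2, the tryptophan hydroxylase of serotonin neurons, was lower by the same test, with a difference of -0.88 (SE 0.20, adjusted p = 0.0109) that was -0.31 with normexp (adjusted p = 0.0025). It was detected in 2 B6 mice and in no BTBR/R mouse, and no fold is given.

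Ahrr, the repressor of the aryl hydrocarbon receptor, was the other gene called as lower. It was detected in every B6 mouse and in no BTBR/R mouse, with a difference of -1.18 (limma adjusted p = 0.00209) that was -0.24 with normexp (adjusted p = 0.00665), and no fold is given. The receptor itself, Ahr, differed by 0.031 (limma adjusted p = 0.793) and was detected in all 8 mice.

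In the glutarate branch, Dhtkd1 and Gcdh, enzymes of lysine and tryptophan breakdown past the kynurenine pathway, were lower in BTBR/R mice, with differences of -0.58 (SE 0.084, limma adjusted p = 0.00111) and -0.32 (SE 0.041, adjusted p = 0.000544), and both were detected in all 8 mice. The other 4 genes of this list had adjusted p above 0.05. They include Kyat1 (0.017) and Kyat3 (-0.25, limma adjusted p = 0.0947), which also make kynurenic acid. Of the 10 genes of NAD synthesis, Nmnat3 (-0.45, limma adjusted p = 0.0064) and Nmrk1 (-0.36, adjusted p = 0.011) were lower, none was higher, and the median of the list was -0.017.

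Among the cytokine signals, the interferon-gamma receptor chain Ifngr1 (-0.14, limma adjusted p = 0.0479) and the transcription factor Irf1 (-0.29, adjusted p = 0.0484) were lower, close to the threshold. With normexp the adjusted p of Irf1 was 0.25. Without single mice, the adjusted p ranged from 0.030 to 0.12 for Irf1 and from 0.053 to 0.12 for Ifngr1. The remaining genes of this list, Ifngr2, Tnf, Il1b, Socs1 and Socs3, had adjusted p above 0.05. The lowest was that of Socs3 (0.35, limma adjusted p = 0.054, and 0.043 with normexp), and that of Tnf was 0.40, and 0.049 with normexp. Ido1, which interferon-gamma is known to induce, had the value given above.

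**Figure D4:**
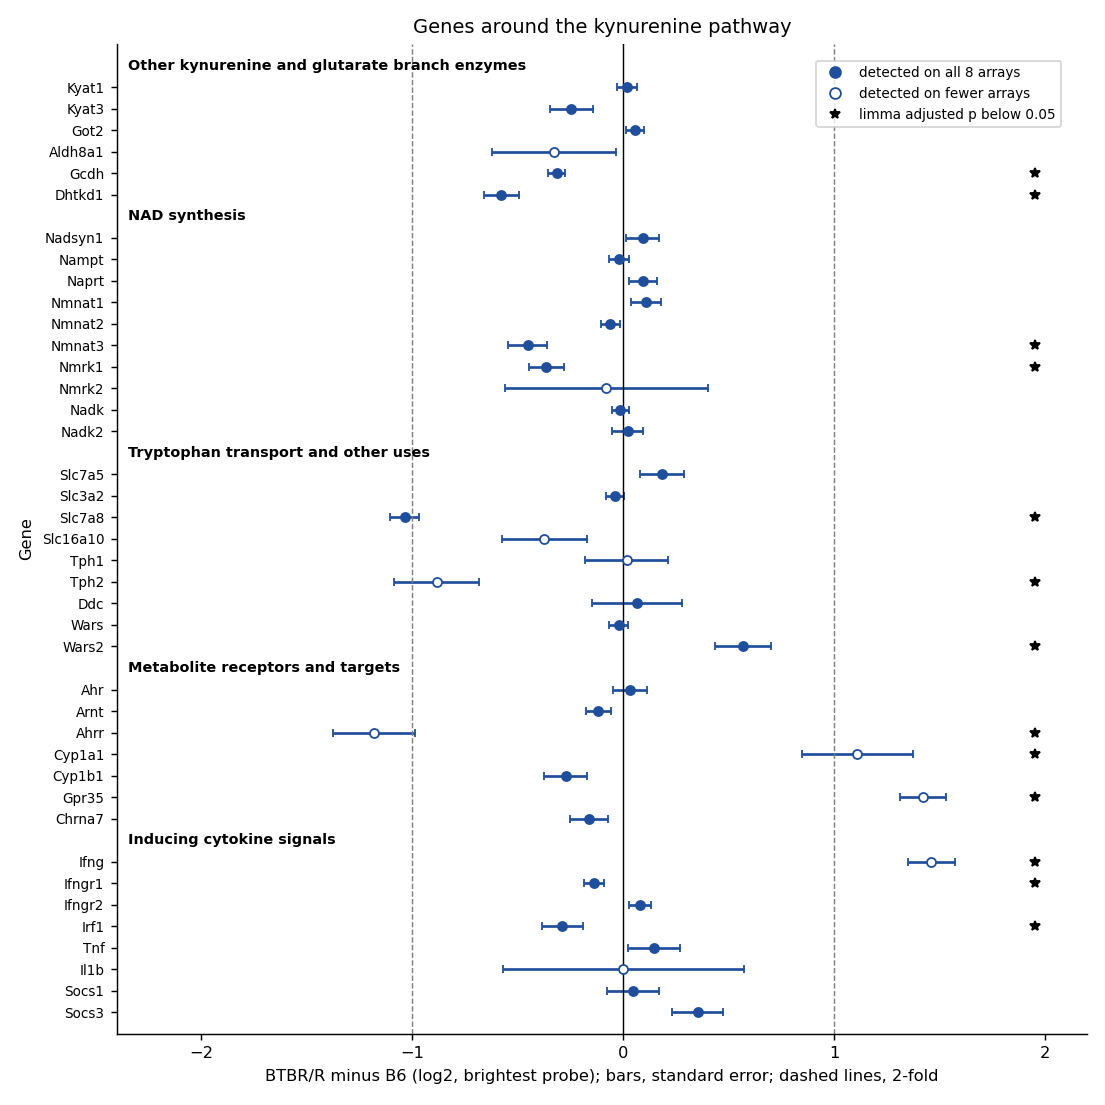
Difference between the strains (BTBR/R minus B6, log2, horizontal axis) of 40 genes around the kynurenine pathway, grouped by list (vertical axis), by the brightest probe of each gene with standard errors; filled points were detected in all 8 mice, open points in fewer, and stars mark a limma adjusted p below 0.05. Slc7a8 is the filled point beyond 2-fold on the left, and the 3 points beyond 2-fold on the right are open.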

How the data were processed

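RNA of the cerebral cortex and striatum of 8 mice was hybridized to 1-colour Agilent arrays, 1 mouse each, and the labels give the strain of every mouse. The members and gene lists were chosen with earlier results of these data known. The authors deposited Feature Extraction (10.7.3.1) intensities per spot (raw mean, local background and processed signal) with detection flags, and log2 values, which differed from the log2 of the processed signal by 1 constant in each array, within 0.01, for at least 99.97% of probes.

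Here, control spots and outliers were left out and spots of a probe averaged, leaving 56605 probes. After log2, the 75th percentile of each array was subtracted from its processed signals, and strains were compared with limma 3.58.1 in R 4.3.3 (lmFit, eBayes, Benjamini-Hochberg over all probes). The fit was tested on simulated data, where 84% of 200 changed probes were called. The simulation held no strain difference in surrogates or detection limit, so it did not test calls at the dim end. Precision is limited by the 8 arrays. A fold bound from the lowest detected signal was taken for probes detected on every array of 1 strain and none of the other. That bound was under 1 for each such probe, so none is given. For probes detected on only some arrays of 1 strain and none of the other, no bound was taken.

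All member probes are named. From each list around the pathway, the text gives every called gene. It also gives at most 4 others per list, those with the largest difference among genes detected in all 8 mice at adjusted p below 0.05. Slc7a5, Slc3a2, Ahr, Kyat1 and Kyat3 were added as neighbours of the pathway, after their values were seen. Tph2 and the remaining genes of the cytokine list were also added after their values were seen. Of the cell type markers, those at an adjusted p below 0.05 are named. Normexp used an offset of 50. Further alternatives were quantile and median scaling, the 75th percentile of detected probes, the authors' log2 values, filters and a floor on dim probes, a replicate block, the methods' t-test, limma with trend and robust estimation, and leaving out each mouse. Tables and plots were made in Python 3.11.15 with pandas 2.3.3, numpy 2.4.6 and matplotlib 3.10.9. No genome sequence was used. The cytokine list was analysed without a gene that is not reported here.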

Additional observations from a re-analysis of the deposited data

Results flagged for a closer look

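Over the 17 probes and both strains, 34 groups of 4 mice were tested for a mouse far from the others by Dixon's criterion, and 3 were flagged. Chance flags about 1 in 20 groups. For Ido2 (A_51_P384515), BTBR/R replicate 4 had the lowest scaled signal of its strain, -2.65, while the other 3 lay between -2.25 and -2.18. For the second Ido2 probe (A_52_P231847), BTBR/R replicate 1 was the highest at -5.12, with the others between -5.79 and -5.70, of which 2 were surrogates. For Qprt (A_55_P2713655), detected on no array, B6 replicate 2 was the highest at -6.40, with the others between -7.41 and -7.28.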

How the results depend on the processing

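The 7 calls among the 17 probes became 0 with normexp, alone or with quantile normalization (chosen after seeing the data), 1 with quantile normalization (Kmo A_66_P106836, lower, which was not among the 7), 0 with either filter on dim probes and 0 with the floor at the highest detection limit. In the same order, the 12697 calls over all probes became 563, 562, 2200, 1557 (detected on every array of a strain), 631 (detected on all 8 arrays) and 789, and the 11413 called as higher became 231, 213, 544, 362, 300 and 276. Both filters took out the 7 called probes, and the floor set each of their differences to 0, so these settings did not test those calls. Leaving out single mice gave 7 to 9 calls among the 17 probes, and 0 to 1 among the 7 detected ones, the 1 being Qprt without BTBR/R replicate 4. The 7 without B6 replicate 2 were not the 7 of all mice, since Kynu A_55_P1965975 lost its call (0.97) and Kmo A_66_P106836 gained one (-1.06). Same-numbered mice did not deviate together (correlations -0.07 to 0.16), and with a replicate block the number of calls was 7. A slide block could not be fitted, with 1 slide. The reversed differences were those of Kynu A_55_P1965975 (-0.34 normexp, -0.073 quantile, -0.38 both), A_55_P2481457 (-0.089 normexp, -0.067 both) and A_55_P2627920 (-0.26 normexp, -0.25 both), Acmsd (-0.13 normexp, -0.14 quantile, -0.14 both), Qprt A_55_P2713655 (-0.048 normexp, -0.14 quantile, -0.054 both), Tdo2 (0.046 normexp), Cyp1a1 (-0.19 quantile), Ido2 A_51_P384515 (0.021 normexp, 0.041 without BTBR/R replicate 4) and Haao A_55_P2074035 (0.15 normexp, 0.070 both, and -0.056 to 0.041 without single mice). The causes were not tested. Over all alternatives, 29 differences of the 17 probes lost a call, of which 13 also reversed and 7 were exactly 0 with the floor, and 4 gained one. In all, 22 differences of the 17 probes reversed. A further 6, uncalled before, were exactly 0 with the floor. The other 268 kept their direction and stayed called or uncalled, although the adjusted p of 14 of these crossed 0.05, 8 from below to above. Signals below about the lowest detected signal of the BTBR/R arrays limit what can be read for Kmo, Kynu, Tdo2, Afmid, Qprt, Acmsd and Aadat.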
